A study of Mus musculus with 3 samples.

Results

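The genes described here are Il10, its receptor chains Il10ra and Il10rb, the interleukin-4 receptor chain Il4ra, the alternative activation markers Retnla, Mrc1 and Chil3, the cytokine gene Tgfb1 and the transcription factor gene Maf. They were chosen by name, as the probe sets that the platform annotation gives to each of these genes alone. That rule found 20 probe sets for the 9 genes, out of 45037 probe sets and 18193 genes with a probe set of their own. Mouse bone marrow-derived dendritic cells (BMDCs), grown from bone marrow for 10 days with 10 ng/ml of the growth factor GM-CSF, were measured on 3 Affymetrix whole-genome mouse arrays. One condition was BMDC(+LPS+cAMP), cells given 10 ng/ml lipopolysaccharide (LPS) with 100 µM 8-Br-cAMP for 3 h. Another was BMDC(+LPS), cells given 10 ng/ml LPS alone for 3 h. The last was BMDC(-), unstimulated cells with no incubation time recorded. LPS comes from the outer membrane of Gram-negative bacteria and acts through Tlr4. Cells take up 8-Br-cAMP, which acts in place of their own second messenger cyclic AMP. The labels give no strain, sex, age or number of animals, and no array had 8-Br-cAMP without LPS. With 1 array per condition there was no replicate check and no test, and differences between single cultures cannot be told apart from effects of the agents.

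Interleukin-10 is a cytokine that restrains inflammatory gene expression in myeloid cells. It binds Il10ra, pairs it with the shared chain Il10rb, and signals through Jak1, Tyk2 and Stat3. Alternative activation is the state that interleukin-4 and interleukin-13 induce in mouse macrophages through Il4ra and Stat6, classically read by Retnla, Chil3, Mrc1 and Arg1. Maf is a transcription factor that drives Il10 in macrophages and T cells, and the Il10 gene in myeloid cells is known to respond to cAMP through CREB.

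Values are scaled signals, the deposited signals multiplied by 1 factor per array. A floor was set at a scaled signal of 32.5 (log2 5.02), the highest of the 3 array medians, and log2 differences were taken after lower signals were set to it. Where one of the arrays was under the floor, the true difference can only be larger, and it is given as "at least". The brightest probe set, by its mean over the arrays, stands for a gene, which counts as measured when either array compared exceeds the floor. The threshold for a count was 2-fold. The scatter between 2 probe sets of the same gene gave an error of 1 probe set, on the log2 scale, of 0.48 between the LPS+8-Br-cAMP and LPS arrays (3799 genes) and of 0.45 between the LPS and unstimulated arrays (4029 genes). This error does not hold the spread between cultures.

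Promoter sequence is shown for the 3 members that went furthest in either direction among those above the floor on every array and for which RefSeq promoters were at hand, Retnla and Il4ra, which were higher with 8-Br-cAMP, and Chil3, which was lower. The RefSeq table (GRCm38.p6) held promoters for 5 of the 9 members, not for Il10, Il10ra, Il10rb or Maf. Each sequence below is the 250 bases before the annotated start, 5′ to 3′ on the strand of the gene. Capitals mark matches, on either strand, to any of 6 motifs. The motifs were the cAMP response element (CRE) TGACGTCA and its core TGACG, which the full element contains, the STAT motif TTCNNNGAA and its Stat6-type form with 1 more base in the gap, the C/EBP motif TTGCNNAA and the Maf recognition core TGCTGA.
Retnla, chr16:48842359-48842608, plus strand: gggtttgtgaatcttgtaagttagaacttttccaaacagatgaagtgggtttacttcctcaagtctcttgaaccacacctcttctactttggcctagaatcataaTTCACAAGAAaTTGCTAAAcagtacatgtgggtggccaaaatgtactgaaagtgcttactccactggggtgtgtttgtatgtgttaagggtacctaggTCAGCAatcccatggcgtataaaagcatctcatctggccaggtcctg
Il4ra, chr7:125552021-125552270, plus strand: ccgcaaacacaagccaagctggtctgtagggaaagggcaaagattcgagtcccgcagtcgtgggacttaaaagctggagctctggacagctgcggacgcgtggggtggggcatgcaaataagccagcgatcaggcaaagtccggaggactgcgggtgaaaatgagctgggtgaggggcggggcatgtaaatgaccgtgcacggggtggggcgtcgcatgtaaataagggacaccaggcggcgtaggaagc
Chil3, chr3:106167565-106167814, minus strand: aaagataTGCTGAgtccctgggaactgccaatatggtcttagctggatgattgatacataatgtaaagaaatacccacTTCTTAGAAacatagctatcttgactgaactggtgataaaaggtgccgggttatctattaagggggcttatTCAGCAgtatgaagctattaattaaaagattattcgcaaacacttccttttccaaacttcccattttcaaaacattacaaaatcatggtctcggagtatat

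In the Retnla window the Stat6-type motif, TTC and GAA with 4 bases between them, matched at -145 to -136 from the start as TTCACAAGAA, and the C/EBP motif matched at -134 to -127 as TTGCTAAA. Of the 32851 promoter windows of this length in the table, 5.85% held that STAT motif and 9.56% that C/EBP motif. The Retnla window also held the Maf core at -47 to -42 on the reverse strand, a match found in 16.1% of windows. In the Chil3 window the STAT motif TTCNNNGAA, found in 7.02% of windows, matched at -172 to -164, and the Maf core matched at -243 to -238 and, on the reverse strand, at -101 to -96. None of these matches overlapped another. The Il4ra, Mrc1 and Tgfb1 windows held none of the 6 motifs. The full CRE was in 1.55% of all windows and its core in 17.8%, and neither was in the 5 member windows. A match describes letters in these windows and is not a measured binding site.

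On the array of LPS+8-Br-cAMP cells, Il10, Retnla, Il4ra and Mrc1 were higher than with LPS alone, and Il10ra and Chil3 were lower. Il10 was at least 7.2-fold higher, while Retnla was 3.31-fold and Il4ra 3.16-fold higher. Of the 9 members, all measured in this comparison, 4 were at least 2-fold higher, 2 at least 2-fold lower and 3 differed by less. Over all 12572 measured genes, 6.49% were past 2-fold upwards and 5.81% downwards (12.3% either way). The members had a median log2 difference of 0.89, with a median of 0.049 over all measured genes. With 9 members that median was the value of Maf by its brightest probe set. It was 0.27 with the mean over probe sets, and 0.43 with only probe sets ending in plain _at, which leaves out Il4ra.

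**Figure D1:**
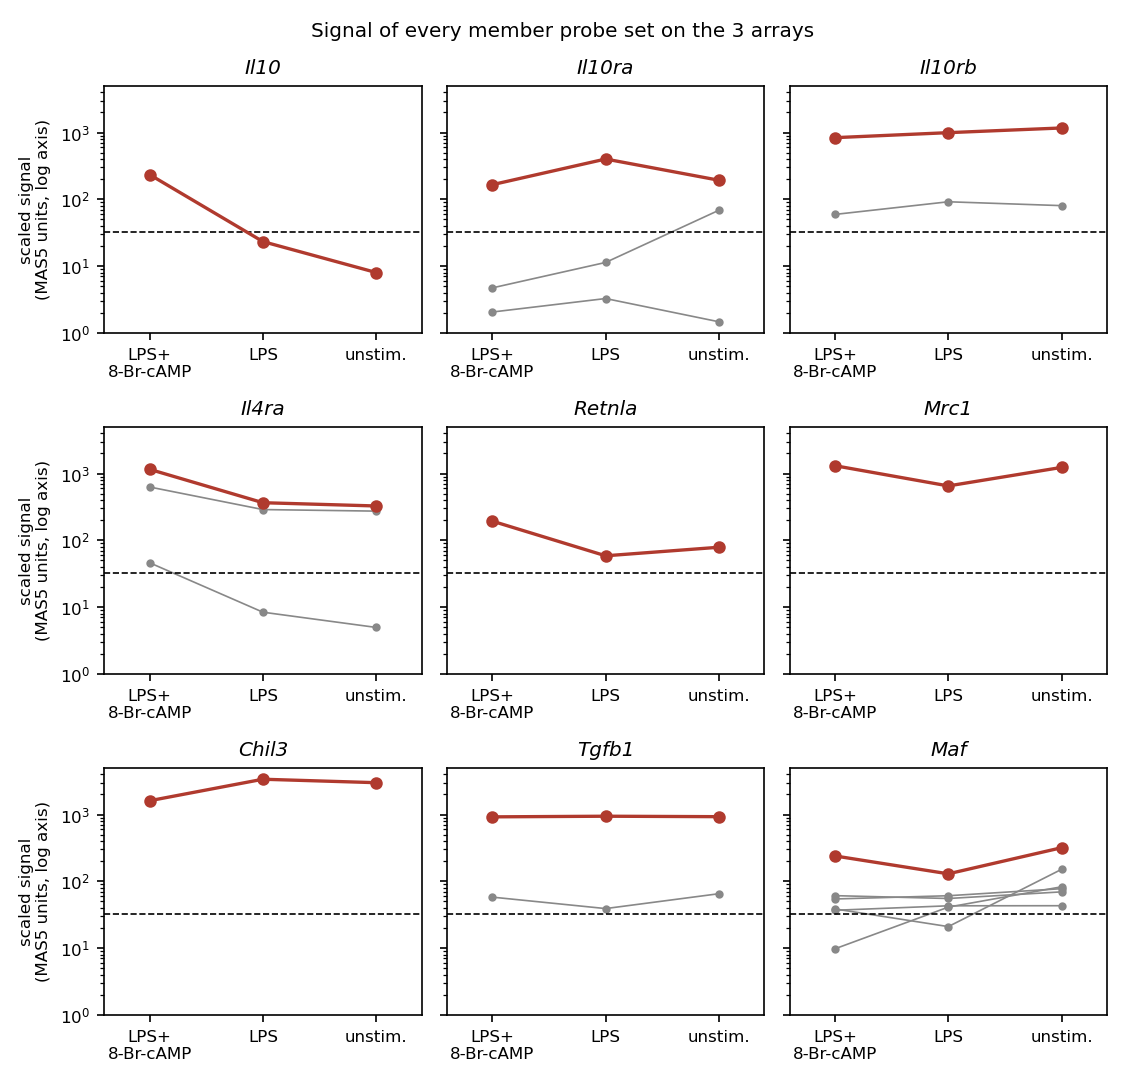
Scaled signal on a log axis (MAS5 units) for every probe set of the 9 genes on the LPS+8-Br-cAMP, LPS and unstimulated arrays, 1 array each. Red marks the probe set that represents the gene, grey the others, and the dashed line is the floor of 32.5. Il10 is above the floor on the LPS+8-Br-cAMP array alone, at 234.3, and Tgfb1 lies between 922 and 943 on the 3 arrays.

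The cytokine Il10 had a scaled signal of 234.3 with LPS+8-Br-cAMP, against 23.2 with LPS and 7.99 unstimulated. Its single probe set was above the floor with 8-Br-cAMP only. Il10 was therefore at least 2.85 log2 units above both other arrays. LPS alone and no stimulus could not be ordered for Il10, since both readings were under the floor. That bound is set by the floor, and a floor at the 75th percentile of all signals lowered it to 1.29 against either array. With a floor at the 25th percentile the LPS reading of Il10 was above the floor, and the difference from LPS was 3.33.

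Il10ra, the chain that binds interleukin-10, went the other way. Its brightest probe set read 165 with LPS+8-Br-cAMP, 401 with LPS and 193 unstimulated. The LPS array was the high one, and the other two differed by -0.22 log2 units, less than the error of 1 probe set. LPS+8-Br-cAMP differed from LPS by -1.28. The other two Il10ra probe sets were under the floor on both of these arrays. Against unstimulated cells LPS gave 1.06 by the brightest probe set, but an _x_at probe set, a type whose probes can bind other transcripts as well, read 11.3 with LPS and 68.6 unstimulated. With the mean over its probe sets the Il10ra difference between LPS and unstimulated was -0.00637, and that between LPS+8-Br-cAMP and LPS was -0.43. In that mean a probe set under the floor on both arrays counted as no difference.

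Il10rb, the chain shared with other receptors of the interleukin-10 family, had 837 with LPS+8-Br-cAMP, 995 with LPS and 1170 unstimulated. Its difference was -0.25 for LPS+8-Br-cAMP against LPS and -0.23 for LPS against unstimulated, both within the error of 1 probe set. The dimmer probe set, at 59.3, 91.8 and 80.3 in the same order, gave -0.63 and 0.19.

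Il4ra, the signalling chain of the interleukin-4 and interleukin-13 receptors, read 1156 with LPS+8-Br-cAMP, 365 with LPS and 326 unstimulated. The array with 8-Br-cAMP was high and the other two lay close together. The log2 difference was 1.66 against LPS, and LPS differed from unstimulated by 0.16. The second probe set read 628, 288 and 273 in the same order, a difference of 1.12 against LPS. The third was above the floor only with 8-Br-cAMP, at 46.1. All 3 probe sets were thus highest on the LPS+8-Br-cAMP array, though the third was dim.

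Retnla, which encodes a secreted resistin-like protein, had a scaled signal of 194 with LPS+8-Br-cAMP, 58.6 with LPS and 78.7 unstimulated. It was higher by 1.72 against LPS and by 1.3 against unstimulated cells, and LPS differed from unstimulated by -0.43. The gene has a single probe set, and its signals without 8-Br-cAMP were near the floor. With the floor at the 75th percentile its difference from LPS was at least 1.02.

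Mrc1, the mannose receptor, read 1309 with LPS+8-Br-cAMP, 652 with LPS and 1235 unstimulated. The LPS array was the low one, by -0.92 against unstimulated cells, and the array with 8-Br-cAMP was level with the unstimulated one (0.084). Mrc1 was 2.01-fold higher with LPS+8-Br-cAMP than with LPS, at the 2-fold threshold itself. It passed in 6 of 11 settings, the one reported here among them, with values of 0.20 to 1.08. Mrc1 has a single probe set, far above each floor, so the 2 other floors and 2 other choices of probe set could only repeat the reported value. Spike scaling passed (1.08). Quantile normalization (0.93), median scaling (0.95), cyclic loess (0.93), the pseudocount (0.99) and the signals as deposited (0.20) fell short.

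Chil3 encodes the chitinase-like protein Ym1, a marker of alternative activation that neutrophil precursors also make. It had 1608 with LPS+8-Br-cAMP, 3376 with LPS and 2996 unstimulated. The array with 8-Br-cAMP was low, 2.10-fold under LPS (-1.07), and LPS differed from unstimulated by 0.17. The fold against LPS stayed past 2-fold in 11 of 11 settings, from -1.88 to -1.0. Its single probe set was far above each floor, so the other floors and choices of probe set could only repeat the reported value. A probe set that the annotation gives to Chil3 and Chil4 together was left out. The close paralog Chil4 has a probe set of its own. It read 42.0 with LPS+8-Br-cAMP, and under the floor with LPS (28.3) and unstimulated (22.8). How far Chil4 contributes to the Chil3 probe set was not tested and is not known from these files.

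Granulocyte markers were lower on the same array. All 14 measured were lower than with LPS, 9 of them at least 2-fold, with a median of -1.54. Mpo read 50.5 with LPS+8-Br-cAMP and 282 with LPS, and Elane 79.7 and 414. Their summed scaled signal was 23995 with LPS+8-Br-cAMP, 45776 with LPS and 43479 unstimulated, and all 14 were above the floor on each array. Of 4 measured eosinophil markers 3 were at least 2-fold lower, with a summed signal of the 6 on the array of 508 with LPS+8-Br-cAMP, 1501 with LPS and 1413 unstimulated, and Ccr3 and Il5ra under the floor on all arrays. The part of these cells in the lower Chil3 was not tested. In such cultures fewer cells of a type and less RNA per cell cannot be told apart.

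Tgfb1, the precursor of transforming growth factor beta 1, was the most even member by its brightest probe set. It had 922 with LPS+8-Br-cAMP, 943 with LPS and 928 unstimulated, differences of -0.032 and 0.022. The dimmer probe set read 57.9, 39.0 and 65.1 in the same order, which gave 0.57 for LPS+8-Br-cAMP against LPS and -0.74 for LPS against unstimulated.

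Maf was lowest with LPS by its brightest probe set, which read 240 with LPS+8-Br-cAMP, 129 with LPS and 318 unstimulated. LPS differed from unstimulated by -1.30, and LPS+8-Br-cAMP from LPS by 0.89, under 2-fold. The 6 Maf probe sets did not move as a block. Against unstimulated cells, LPS gave at least -2.22 by the second (under the floor at 21.0 with LPS, 151 unstimulated) and -1.01 by another, while the remaining 3 lay between -0.35 and -0.0043. With 8-Br-cAMP added to LPS, the 5 dimmer probe sets went both ways, at least 0.24, 0.14, -0.16, -0.22 and at least -0.33. The last of these read 9.75 with LPS+8-Br-cAMP and 41.0 with LPS.

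**Figure D2:**
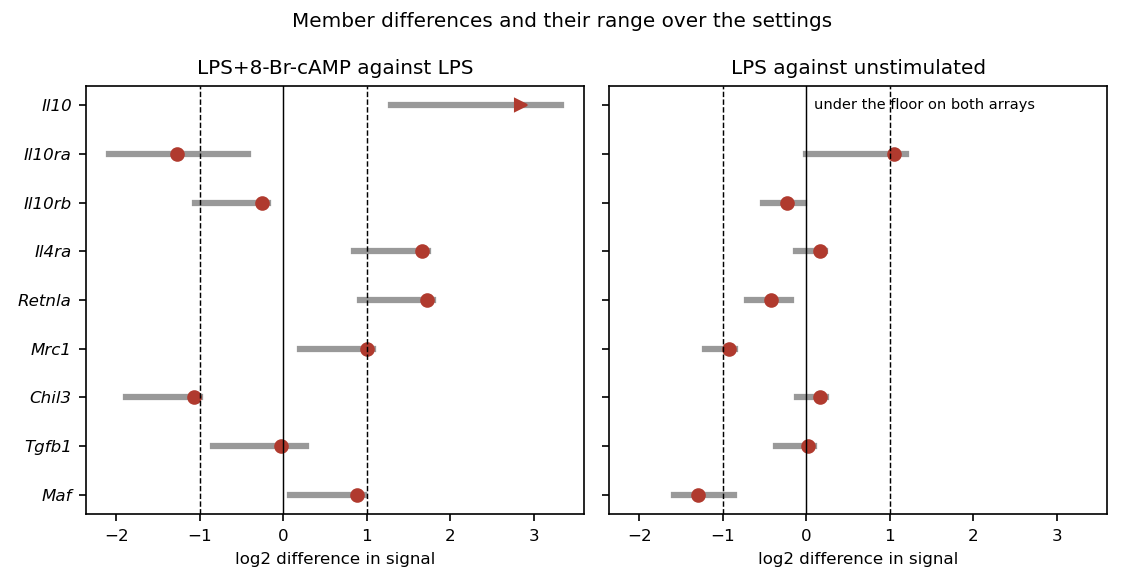
Log2 difference in signal of the 9 genes for LPS+8-Br-cAMP against LPS (left) and LPS against unstimulated (right), 1 array per condition. Red marks the reported value (a triangle where it is a lower bound), the grey bar the range over the reported and alternative settings, and dashed lines 2-fold. Il10, Il4ra and Retnla lie at 2.85, 1.66 and 1.72 on the left, and Maf lies at -1.30 on the right.

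LPS without 8-Br-cAMP was set against unstimulated cells. The comparison shares the LPS array with the one above, so a high or low reading on that array enters both with opposite sign. Of 8 members measured, 1 was at least 2-fold higher with LPS than unstimulated (Il10ra), 1 was at least 2-fold lower (Maf) and 6 differed by less. Over all 12283 measured genes, 6.64% were past 2-fold upwards and 13.0% downwards (19.6% either way). The members' median was -0.11, and that of all measured genes -0.21. Il10 was not measured here, being under the floor on both arrays.

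LPS+8-Br-cAMP cells set against unstimulated cells, a comparison that shares an array with each of the others, had 3 members of 9 at least 2-fold higher and 0 lower, Il10 by at least 2.85, Il4ra by 1.82 and Retnla by 1.3. Over all 12793 measured genes, 9.36% were past 2-fold upwards and 15.8% downwards (25.1% either way). Chil3 differed by -0.90, Il10rb by -0.48 and Maf by -0.41.

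Beyond the members, 6 lists held other genes of these pathways. For LPS+8-Br-cAMP against LPS, 6.49% of all measured genes were past 2-fold upwards and 5.81% downwards, and these shares stand beside the list counts. With 8-Br-cAMP, 5 of 19 measured alternative activation genes were at least 2-fold higher than with LPS and 1 was lower (median 0.070, beside 0.049 for all measured genes). With the floor at the 75th percentile, which leaves fewer genes measured, the list median was 0.66, and with the signals as deposited it was -0.46. Arg1, arginase 1, read 11469 with LPS+8-Br-cAMP, 3660 with LPS and 4287 unstimulated, higher by 1.65 against LPS. Kdm6b, a histone demethylase that supports Irf4 expression, was higher by 1.88, and its other two probe sets by 2.66 and at least 1.14. Irf4 itself, a transcription factor of alternative activation, was higher by 1.41, but by 0.28 by its second probe set. Tgm2, a transglutaminase, was higher by 1.25, and Pdcd1lg2, the PD-1 ligand PD-L2, by 1.05. Ch25h, the cholesterol 25-hydroxylase, differed by -1.07. The lectin receptors Clec10a and Mgl2 differed by -0.15 and -0.29, and the scavenger receptor gene Cd163 was near the floor on every array, at 35.6 with LPS+8-Br-cAMP, 33.9 with LPS and 48.3 unstimulated.

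Genes of interleukin-10 receptor signalling and its known targets were 3 higher and 2 lower of 13 measured against LPS (median 0.0014). That median was the value of Ppp1r13b, a bound set by the floor (32.6 with LPS+8-Br-cAMP, under the floor with LPS). Stat3, the transcription factor that the receptor activates, read 3661 with LPS+8-Br-cAMP, 1601 with LPS and 936 unstimulated, higher by 1.19 against LPS, with 1.25 by its second probe set but -0.89 by another. Nfil3, a repressor induced by interleukin-10 in macrophages, was higher by 1.76, and Ddit4, an inhibitor of mTORC1, by 1.84. Hmox1, heme oxygenase 1, read 291 with LPS+8-Br-cAMP, 1603 with LPS and 1158 unstimulated, a difference of -2.46 against LPS. The kinase Tyk2 differed by -1.56, but by 1.5 by its second probe set. Socs3, a feedback inhibitor of cytokine receptors, was already high with LPS, at 4241 against 170 unstimulated, and 5077 with 8-Br-cAMP. With 8-Br-cAMP against LPS it differed by 0.26, and by 0.51 and -0.74 by its other probe sets. Il10 was under the floor on that LPS array, and any link between Il10 and Socs3 was not tested.

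Interleukin-4 and interleukin-13 receptor signalling had 0 of 9 measured genes past 2-fold upwards and 2 downwards, with a median of -0.12. These were Tyk2, above, and the phosphatase Ptpn6, which differed by -1.83 but by 0.043 by its second probe set. Stat6, the transcription factor downstream of Il4ra, read 726 with LPS+8-Br-cAMP, 577 with LPS and 702 unstimulated (0.33 against LPS), and Jak3 differed by -0.36. The cytokine Il4 was under the floor with LPS+8-Br-cAMP and just above it with LPS (35.5), and Il13 was under the floor on all 3 arrays, at 8.95, 8.48 and 13.5. The list median of -0.12 was the Il4 value, a bound set by the floor. Of the other interleukin-10 family genes 5 were measured, 0 higher and 1 lower by at least 2-fold, the receptor chain Il20rb (-1.32). All 7 with a probe set were dim, the brightest reading being 154 for Il20rb with LPS.

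Factors of the Maf family and others known to bind or act on the Il10 gene had 6 of 18 measured genes past 2-fold upwards and 1 downwards, with a median of 0.17. The median of all measured genes was 0.049, with 6.49% past 2-fold upwards and 5.81% downwards. Crem, a cAMP-inducible member of the CREB family, read 1983 with LPS+8-Br-cAMP, 116 with LPS and 140 unstimulated, higher by 4.10. Fos was higher by 2.89, Nfil3 by 1.76, Bhlhe40 by 1.56, Irf4 by 1.41 and the CREB coactivator Crtc3 by 1.38. Crtc3 was lowest with LPS, at 68.0, and read 176 with LPS+8-Br-cAMP, still under the 276 of unstimulated cells. Its relative Crtc1 differed by at least -1.07. The small Maf genes Maff and Mafk differed by -0.76 and 0.43. The list was drawn up with results of these data known, and Crem and Fos were already known to be high here.

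Transforming growth factor beta genes had 2 higher and 1 lower of 24 measured (median 0.17). Over all measured genes 6.49% were higher and 5.81% lower (median 0.049). The co-receptor Tgfbr3 was higher by 1.11 and the integrin chain Itgb8, which activates latent TGF-beta, by 1.01, and Smad7, an inhibitor of the pathway, differed by at least -1.04. With LPS against unstimulated cells both signalling receptors were lower, Tgfbr1 by -2.73 (163 against 1078) and Tgfbr2 by -1.21 (196 against 454). In that comparison 3 of 25 of these genes were higher and 4 lower (median 0.063). Over all measured genes it had 6.64% higher and 13.0% lower (median -0.21).

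**Figure D3:**
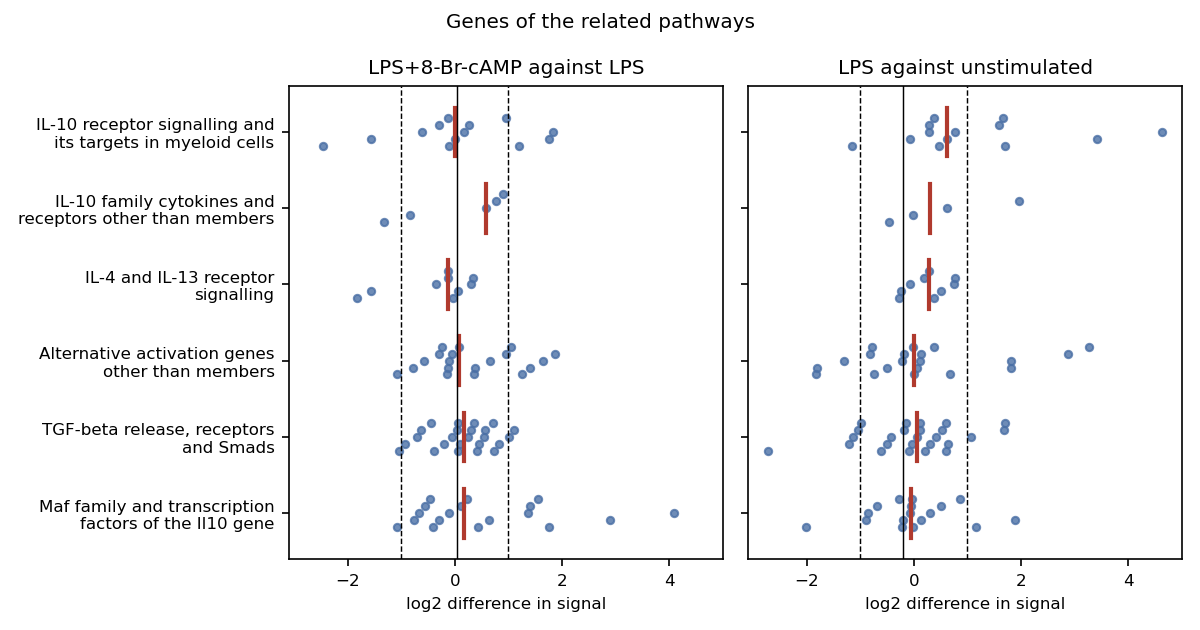
Log2 difference in signal of each measured gene (blue points) of 6 pathway lists, for LPS+8-Br-cAMP against LPS (left) and LPS against unstimulated (right), 1 array per condition. Red bars are list medians, the solid line is the median of all measured genes (0.049 left, -0.21 right) and dashed lines are 2-fold. On the left Crem lies furthest right, at 4.10, and Hmox1 furthest left, at -2.46.

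With LPS against unstimulated cells the interleukin-10 signalling and target list had 5 of 13 genes higher and 1 lower (median 0.63, beside -0.21 for all measured genes). Socs3 was higher by 4.64 and the interleukin-1 receptor antagonist gene Il1rn by 3.42 (6771 against 633). The alternative activation list had 4 of 20 higher and 3 lower (median -0.0053). Its chemokine genes Ccl17 and Ccl22, also made by maturing dendritic cells, were higher by 3.27 and 1.81, while the scavenger receptor Stab1 differed by -1.83 and the transcription factor Klf4 by -1.31.

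The genes whose 3 values ran most like those of Il10 were sought among 10748 genes above the floor with LPS+8-Br-cAMP, by the Euclidean distance of log2 signals centred on each gene's mean over the 3 arrays. The 5 nearest were Nrg1 (0.0027), Nr4a1 (0.26), Rdh12 (0.28), Sptssb (0.29) and Arg2 (0.33). Il10 itself was under the floor on both arrays without 8-Br-cAMP, so none of these distances compares 3 measured values. Nrg1 (2.87 and 4.74) and Sptssb (5.74 and 2.18) were under it on both as well, and their distances rest on the reading with 8-Br-cAMP alone. For Il4ra they were Phlda1 (0.032), Samsn1 (0.040), Fbll1 (0.071), Mxi1 (0.083) and Isl2 (0.11), and for Retnla Sh3pxd2b (0.025), Vdr (0.040), Fbxo36 (0.040), Abca1 (0.042) and Klk1 (0.061). With 3 arrays such nearness is a description only.

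The arrays also differed in ways that bear on all of these values. Deposited median signals were 19.8 with LPS+8-Br-cAMP, 33.4 with LPS and 42.6 unstimulated, and scaling removed most of that gap. All 14 dendritic cell markers were above the floor on every array, among them Itgax (1165 with LPS+8-Br-cAMP, 1347 with LPS and 1518 unstimulated), Cd74 and H2-Ab1, though Flt3 was near it (49.6, 36.8 and 60.0 in the same order). The dendritic cell markers were not all level with 8-Br-cAMP against LPS. At least 2-fold higher were 3 of the 14 (Ccr7, Cd83 and Irf4), and 1 was lower (Irf8, -1.30), with a median of 0.28. The 10 macrophage and monocyte markers with a probe set were above the floor on every array too, with 0 higher and 1 lower by at least 2-fold with 8-Br-cAMP against LPS (median -0.69). Mertk was that one, at -1.65. Of the 10, 7 were below their LPS value, and Cd14 (0.92), Fcgr1 (0.43) and Csf1r (0.14) were above it. Macrophages also express Mrc1 and Maf. The log2 difference with 8-Br-cAMP against LPS was 1.01 for Mrc1. For Maf it was 0.89 by its brightest probe set and 0.093 by the mean over its probe sets. Xist, transcribed from the inactive X of females, read 1716 with LPS+8-Br-cAMP, 8.08 with LPS and 32.3 unstimulated, and Y-linked Eif2s3y read 1.24, 272 and 352. Of 8 measured B cell and plasma cell markers 3 were at least 2-fold lower with 8-Br-cAMP. They were the immunoglobulin genes Ighm, at 52.5 against 1495 with LPS, and Igha, and the joining chain gene Jchain. The part of these differences between cultures in the members' values was not tested, and sex and 8-Br-cAMP cannot be told apart here.

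**Figure D4:**
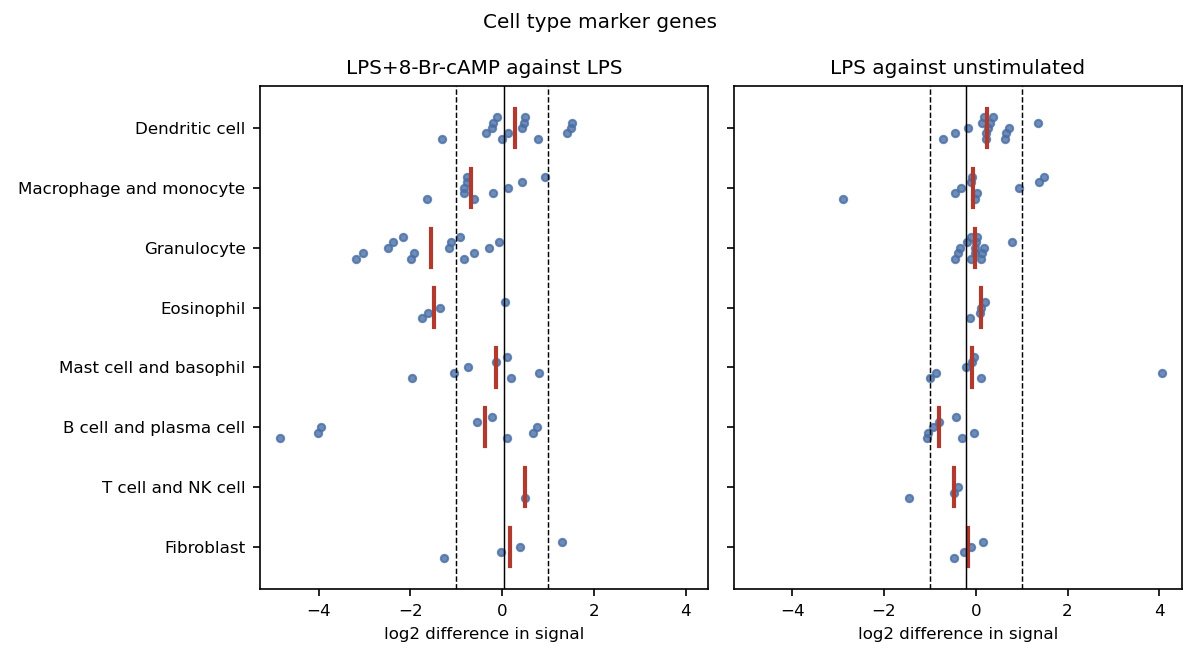
Log2 difference in signal of each measured marker gene (blue points) of 8 cell types, for LPS+8-Br-cAMP against LPS (left) and LPS against unstimulated (right), 1 array per condition. Red bars are list medians, the solid line is the median of all measured genes and dashed lines are 2-fold. Granulocyte markers have a median of -1.54 on the left and -0.0098 on the right.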

How the data were processed

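Gene expression in BMDCs was measured on 3 arrays, 1 for each condition. The authors deposited linear signal intensities, 1 per probe set, and their processing notes name MAS5. Its version and settings are not given in the sources at hand. No detection calls were used. Columns were matched to conditions by their sample labels.

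Of 45101 probe sets, 64 controls were left out. The platform annotation named a single gene for 34945 of them. RefSeq held the identifiers of 99.4% of these and altered 0 symbols. Each array was scaled to the average of the 3 means trimmed by 2% at each end (63.2 with LPS+8-Br-cAMP, 111 with LPS and 135 unstimulated), with factors of 1.63, 0.929 and 0.763. The probe set brightest on average stood for its gene. The error of 1 probe set is the SD, over genes, of the difference between the log2 differences of the brightest probe sets, divided by the square root of 2. With 1 array per condition no test, p-value or SE was computed, and so few arrays limit the precision. The members, lists and rules were chosen with earlier results of these data known. Named genes were the members, up to 5 genes per list with the largest difference for LPS+8-Br-cAMP against LPS, the nearest patterns and the markers. Other list genes in the text, such as Socs3, Il1rn, Stab1, Tgfbr1, Crtc3 and Clec10a, were picked after their values were seen. The steps were tested on simulated data. Alternatives were 5 other scalings, 2 other floors, a pseudocount of 16 and 2 other choices of probe set (pandas 2.3.3, limma 3.58.1).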

Additional observations from a re-analysis of the deposited data

How the results depend on the processing

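Il10, Chil3 and Retnla have a single probe set each, so the 2 other choices of probe set could not change their values. Il10 kept its direction and stayed past 2-fold against LPS in 11 of 11 settings, as did Chil3. Retnla did so in 10 of 11 and Il4ra in 9 of 10, falling short only with the signals as deposited (0.92 and 0.85). That alternative keeps the dimness of the LPS+8-Br-cAMP array, with a median over all measured genes of -0.65 in place of 0.049 and 93 genes higher and 2882 lower in place of 816 and 730. Under it, for LPS+8-Br-cAMP against LPS, 1 member was higher and the members' median was 0.079, while over the lists 4 genes were higher, 23 lower and the median -0.66 (14, 7 and 0.068 in the reported scaling). Against unstimulated cells it gave 1 member higher, 6 lower and a median of -1.10, and over the lists 8 higher, 29 lower and -0.53 (28, 15 and 0.33 reported). For LPS against unstimulated the deposited signals and spike scaling each gave 0 members higher, 2 lower and 15 list genes lower (9 reported), and the median of all genes was -0.47 under both. Spike scaling, quantile normalization and cyclic loess each gave 1 member lower for LPS+8-Br-cAMP against unstimulated, and quantile normalization 2 lower for LPS against unstimulated. The mean over probe sets gave 1 member lower and a median of 0.27 for LPS+8-Br-cAMP against LPS, 4 list genes lower, and 0 members past 2-fold either way for LPS against unstimulated, where Il10ra turned to -0.00637. For Il10ra that mean takes in the _x_at probe set, which gave at least -1.08. Its dimmest probe set was under the floor on every array and counted as no difference. A floor at the 75th percentile gave 4 list genes lower against LPS and 5 for LPS against unstimulated, and one at the 25th percentile 2 members higher with LPS, Il10 among them, where a pseudocount gave 0. Over all genes, LPS+8-Br-cAMP against LPS had 2348 higher and 1895 lower at the lower floor, 334 and 326 at the higher floor, and 472 and 432 with the mean over probe sets. Il4ra has no probe set ending in plain _at, so that alternative gave it no value. No paired analysis was possible because each condition had 1 array.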

Other observations

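Set against unstimulated cells, LPS+8-Br-cAMP cells had more genes past 2-fold over the lists together than either other comparison. The same held for all measured genes, with 25.1% past 2-fold either way. That share was 12.3% for LPS+8-Br-cAMP against LPS and 19.6% for LPS against unstimulated. Not every list followed, as the interleukin-10 family list had 0 of 5 past 2-fold. The interleukin-4 and interleukin-13 list had 0 higher and 2 lower of 9, as it had against LPS. Of 13 measured interleukin-10 signalling and target genes 8 were at least 2-fold higher and 3 lower (median 1.55, beside -0.12 for all measured genes, of which 9.36% were higher and 15.8% lower). Alternative activation genes were 8 higher and 4 lower of 19, with Ccl17 higher by 4.23, Tgm2 by 3.06 and Stab1 at -2.42. This comparison shares its arrays with the others, and nothing in it was tested.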
